A study of Helianthus annuus with 180 samples.

Results

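In solar tracking sunflower stems, 100 genes were singled out because their transcripts were more abundant on the west side at ZT8, in the afternoon, and more abundant on the east side at ZT16, after dusk. ZT, or Zeitgeber Time, counts hours from dawn. The side difference was taken as the log2 ratio of mean normalized CPM (counts scaled to library size), west over east, with 1 CPM added to each mean. A gene's score was the smaller of its difference at ZT8 and its sign-reversed difference at ZT16, and the 100 genes with the largest score above 0 were kept. They were chosen from the 21182 genes that reached a mean of 5 CPM, of 34071 genes in the normalized field table. Of these 21182 genes, 7691 had a score above 0. Because the field differences at ZT8 and ZT16 chose the genes, they are given below as a description without a test. The libraries of the other times of day, and those of a separate phototropism experiment, took no part in the choice.

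All plants were wild type of the inbred line HA412-HO, 2 weeks old, with no transgene or mutation. In the field (heliotropism), stem peels were collected from the west and the east sides of solar tracking plants every 4 hours on 2 days, which gave 3 libraries for each side at each time on each day, and thus 6 per side and time of day. In the growth chamber (phototropism), plants stood in directional blue light from ZT3, and stem peels were collected from the shaded and the lit sides at 9 time points from ZT3 to ZT21, with 6 libraries each. At each field time both sides were peeled from the same 6 plants. Every library pooled stem peels of 2 plants, and a peel holds epidermis, cortex and vascular tissue. The labels give replicate numbers but do not say which libraries came from separate plantings, so that p values measure the spread between these pools. In such bulk tissue, fewer cells of a type and less RNA per cell cannot be told apart.

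Sunflower stems track the sun by unequal growth, since by day the east side elongates more than the west, and at night the west more than the east. At ZT8 and at ZT16, the genes described here had more transcript on the side that is known to grow less at that time. In Arabidopsis, directional blue light is perceived by phototropins, kinases that bind a flavin, and auxin then accumulates on the shaded side, which elongates. Blue light is also known to raise transcripts for chlorophyll and carotenoid synthesis, for the protection of photosystems and for flavonols. An Arabidopsis homolog was available for 54 of the 100 genes, from the supplementary tables of the study. These include lists of genes found to differ in these same samples, and some were read in shortened form. A gene without a homolog here may thus have one. The names, and any count by function, are therefore partial and give no independent evidence. The other 46 genes are named by identifier only. Chromosomes were read from the identifiers of the Ha412HOv2.0 annotation.

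The name west by day, east by night held by construction at the times that chose the genes, and only in part at the other times. At ZT8 the median side difference of the 100 genes was 0.50 on the log2 scale (0.38 to 1.47), and at ZT16 it was -0.50 (-2.35 to -0.38). The medians over all 21182 genes were 0.01 and -0.02. West exceeded east at ZT8 on each of the 2 days in 95 genes, east exceeded west at ZT16 on each day in 98, and 93 genes did both. The libraries of both days chose the genes, so these counts follow in part from the choice. The shares over all genes were not counted. At ZT4, although it was day, 60 of the 100 genes were lower on the west side, with a median of -0.06. At ZT12 the median was 0.11, with 70 genes higher on the west side. At ZT20 it was -0.23, with 86 genes lower on the west side, and at ZT0 it was -0.04, with 58 lower.

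**Figure D1:**
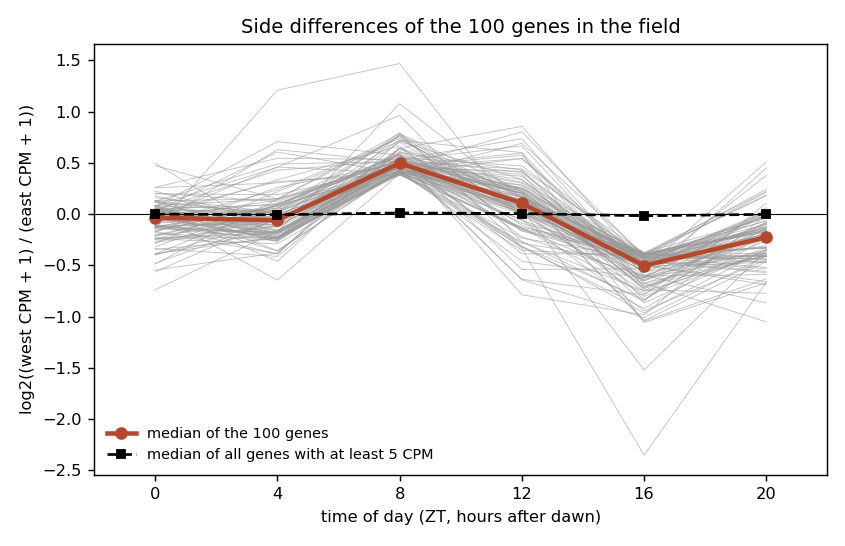
Side differences of the 100 genes in the field, as the log2 ratio of mean CPM plus 1, west over east (y axis), by time of day (x axis, ZT in hours). Each gray line is 1 gene, the red line is the median of the 100 genes and the dashed black line the median of all genes with at least 5 CPM; the red line lies at 0.50 at ZT8 and -0.50 at ZT16, the times that chose the genes, and at -0.06 at ZT4 and -0.23 at ZT20.

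The genes were neither unusually abundant nor rare. Their mean level over all field libraries ranged from 5.03 to 349.7 CPM with a median of 21.5 CPM, against a median of 21.4 CPM over all genes that could be chosen, and 23 genes lay under 10 CPM. In 27 genes the lowest west library at ZT8 lay above the highest east library, as in 0.859% of the 21182 genes. In 46 genes the highest west library at ZT16 lay below the lowest east library (2.7% of all), and 14 genes showed both (0.198% of all). The scores ran from 0.94 to 0.38 with a median of 0.44. The edge of the choice was shallow. Just inside it lay Ha412HOChr04g0188621, a homolog of the cytochrome P450 gene CYP78A6, with a score of 0.378, and Ha412HOChr17g0816851 with 0.376, and just outside Ha412HOChr11g0521241 (a homolog of AT5G19850) with 0.375 and Ha412HOChr17g0837791 (a homolog of AT2G42750) with 0.374. With the libraries of a single day, 57 (day 1) and 51 (day 2) of the 100 genes were chosen again, and the choices of the 2 days shared 24 genes.

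Library totals of the estimated counts ranged from 5074975 to 30834562 in the field (median 16615264) and from 4485611 to 28394943 in phototropism (median 11119560). In the field, replicate 3 of the west side at ZT20 of day 2 stood apart, with a correlation of 0.93 with its group's median, against a median of 0.98 over libraries. In phototropism, 4 libraries lay at 0.93, against a median of 0.97, namely a shaded and a lit library at ZT4 and a lit library at ZT5, all of replicate 5, and a shaded library at ZT7 of replicate 6. All libraries of replicates 5 and 6, on both sides and at every time point, lay below this median, at 0.93 to 0.96. Markers of the tissues in a stem peel were detected, with 17 of 18 listed genes of the epidermis, 7 of 7 of xylem, 7 of 7 of phloem and 10 of 10 of green cortex in the field table, and 9 of 10 of green cortex in phototropism. The summed level of the 10 genes of the green cortex list (chlorenchyma) moved with the side at field ZT16, at 225.1 to 321.0 CPM on west sides and 327.2 to 439.5 CPM on east sides, without overlap. At that time 4 of its 10 genes were lower on the west side and 0 higher (edgeR adjusted p under 0.05). At ZT8 the summed level overlapped, with 1865 to 2453 CPM on west sides and 1622 to 2201 CPM on east sides. The sums of xylem, phloem and epidermis markers overlapped between the sides at each of the 6 times of day. The part of these cells in the choice of the genes was not tested.

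The member with the largest score, Ha412HOChr09g0425221, owed it to few libraries. At ZT8 it had 0.0875, 2.99 and 75.3 CPM (lowest, median and highest library) on west sides, against 0.298, 1.70 and 20.4 CPM on east sides. At ZT16 it had 0.985, 2.07 and 15.4 CPM on west sides and 0.102, 1.66 and 36.03 CPM on east sides. The medians did not reverse between the times, and the sides overlapped throughout. No Arabidopsis homolog was available for it, and its level varied as widely in phototropism, at 0.185 to 90.6 CPM on shaded and 0.599 to 58.4 CPM on lit sides at ZT7.

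Of the next 3 members by score, 2 had their sides apart at ZT16. Ha412HOChr15g0706061 had 3.64, 5.25 and 7.18 CPM (lowest, median, highest) on west sides at ZT8 and 1.47, 2.15 and 3.10 CPM on east sides. At ZT16 it had 0.760, 2.60 and 3.02 CPM on west sides and 3.49, 5.13 and 5.78 CPM on east sides. The sides did not overlap at either time. Ha412HOChr15g0740181 was far more abundant, with 188, 271 and 344 CPM on west sides at ZT8, against 125, 144 and 211 CPM on east sides. At ZT16 it had 75.2, 100.2 and 107 CPM on west sides and 151, 183 and 221 CPM on east sides, so that the sides overlapped at ZT8 and were apart at ZT16. Ha412HOChr17g0822641 had 11.1, 13.4 and 33.97 CPM on west sides and 3.87, 9.91 and 18.5 CPM on east sides at ZT8. At ZT16 it had 1.28, 3.02 and 4.24 CPM on west sides and 4.17, 6.83 and 10.4 CPM on east sides. Its sides overlapped at both times, at ZT16 only by the highest west and the lowest east library.

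**Figure D2:**
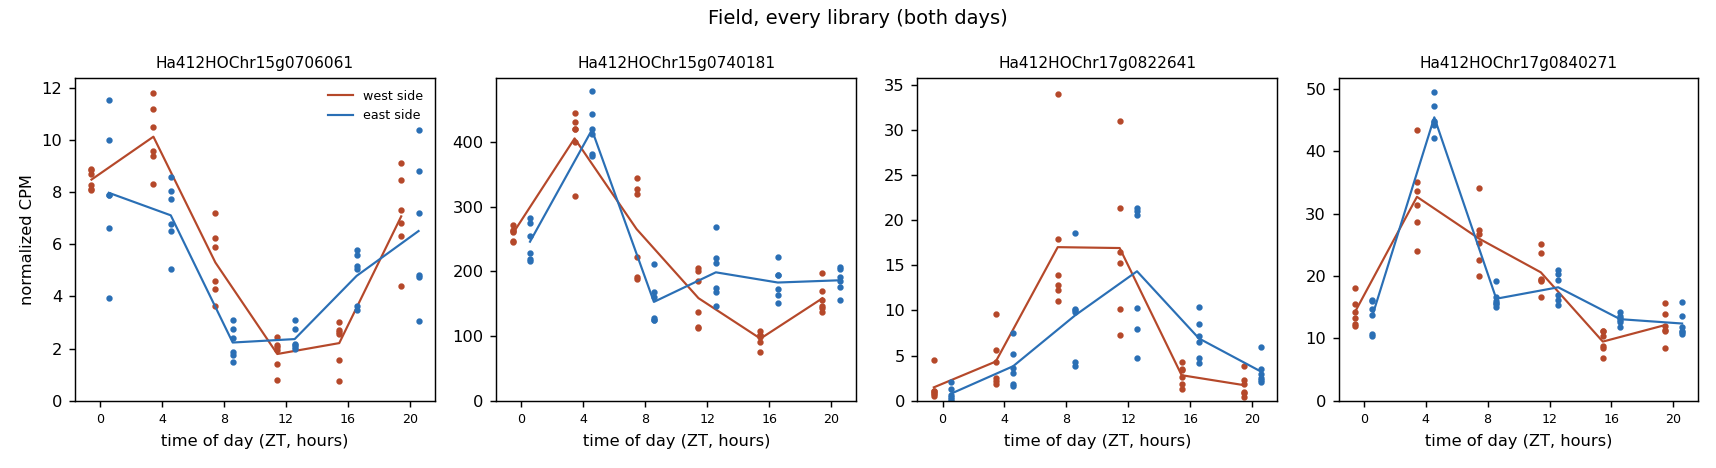
Normalized CPM (y axis) of 4 of the 100 genes in every field library by time of day (x axis, ZT in hours; both days together), with west sides in red, east sides in blue and lines through the means. Ha412HOChr15g0706061, Ha412HOChr15g0740181 and Ha412HOChr17g0822641 are the next 3 genes after the first by score, and Ha412HOChr17g0840271 is the homolog of VAR2; in Ha412HOChr15g0706061 the sides do not overlap at ZT8 or ZT16.

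The 100 genes shared the reversal between sides but not a single time of day, and their highest means lay most often at ZT4 and ZT0. On west sides, 33 genes had their highest mean at ZT4, 26 at ZT0 and 20 at ZT8, and 47 had their lowest at ZT16. On east sides, 35 were highest at ZT4, 22 at ZT0 and 20 at ZT16, and the lowest mean fell at ZT8 in 29, at ZT12 in 27 and at ZT16 in 24. For the mean of both sides, 35 were highest at ZT4 and 25 at ZT0, and 39 were lowest at ZT16 and 26 at ZT12. Low west means at ZT16 and low east means at ZT8 follow in part from the choice. The shares over all genes were not counted. The highest time was the same on both sides in 58 genes. The highest mean was 3.77 times (west, median over genes) and 3.58 times (east) the lowest. Averaged over both sides, 87 of the 100 genes differed between ZT16 and ZT8, as did 59.4% of the 34315 genes tested. Of the 87, 36 were higher at ZT16 and 51 lower, against 30.7% and 28.8% of all genes tested. This comparison used the libraries that chose the genes, though the mean of the sides and not their difference. Many of the genes tested did not reach the 5 CPM required of the 100, so the shares are not matched for level. Of the 7 homologs of light and chloroplast genes named below, 6 were lower and 1 was higher at ZT16.

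**Figure D3:**
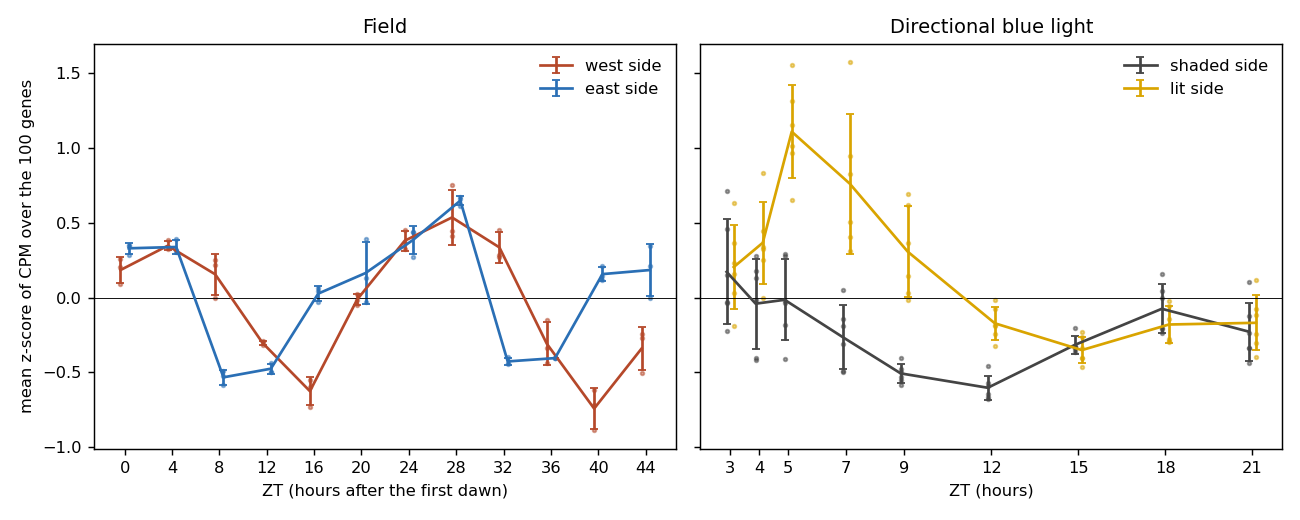
Mean z-score of CPM over the 100 genes (y axis; each gene scaled over the libraries of its experiment) by time (x axis, ZT in hours) in the field, west and east sides, and in directional blue light, shaded and lit sides. Points are libraries, lines and bars the mean ± SD (n = 3 in the field, n = 6 in blue light); west libraries lie between -0.89 and -0.55 at ZT16 and ZT40, east libraries between -0.03 and 0.21, and in blue light the lit sides reach a mean of 1.11 at ZT5.

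At the field times that did not choose them, 0 to 10 of the genes passed the test between sides, and 3 to 33 did with a block for the replicate number, which pairs the west and the east library of a time and day. At ZT0, 0 of the 100 genes were differentially expressed (edgeR quasi-likelihood test, adjusted p under 0.05), against 0.0554% of the 34315 genes tested. At an unadjusted p under 0.05 there were 2 higher and 6 lower on the west side, and DESeq2 gave 0. With the replicate block 1 gene was higher and 2 were lower (0.787% and 0.39% of all). These were, named after their values were seen, the transporter homolog Ha412HOChr01g0045471 (log2 fold change 0.61), the XTH31 homolog Ha412HOChr02g0087001 (-0.53) and the PYL9 homolog Ha412HOChr06g0253771 (-0.43). At ZT4, 1 gene was lower on the west side and 0 higher, against 0.128% and 0.0233% of all genes tested. It was Ha412HOChr16g0766311, a homolog of PDX1, an enzyme of vitamin B6 synthesis, with 69.9, 76.8 and 84.7 CPM on west sides and 110, 120 and 138 CPM on east sides. Its log2 fold change was -0.66 (SE 0.13, edgeR adjusted p = 0.00464), and the sides did not overlap. Leaving out a replicate number removes 1 library per side and day, and the call was then lost each time (adjusted p = 0.19, 0.194 and 0.213 without replicates 1, 2 and 3). The direction at ZT4 was opposite to that at ZT8. With the replicate block 2 genes were higher and 4 lower on the west side at ZT4 (0.819% and 0.737% of all), the PDX1 homolog again among them.

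At ZT12, 7 genes were higher on the west side and 3 lower, against 0.635% and 1.15% of all genes tested. Among these, the largest change toward the west was that of Ha412HOChr11g0488731, with 13.8, 18.8 and 25.0 CPM on west sides and 8.04, 10.5 and 12.9 CPM on east sides (log2 fold change 0.85, SE 0.16, edgeR adjusted p = 0.000683). It was lost without replicate 3 (adjusted p = 0.0584). The other 6 toward the west had log2 fold changes from 0.34 to 0.76 and, named after their values were seen, were Ha412HOChr16g0748711, Ha412HOChr11g0478731 (a kinase homolog), Ha412HOChr16g0802601, Ha412HOChr06g0253771 (a homolog of the abscisic acid receptor gene PYL9), Ha412HOChr16g0802641 (a SEC14-type lipid transfer protein homolog) and Ha412HOChr02g0067881. Toward the east, the largest change among them was that of Ha412HOChr16g0750711, a homolog of the transporter gene AT1G52190, with 58.5, 74.4 and 86.0 CPM on west sides and 97.2, 115 and 169 CPM on east sides (log2 fold change -0.79, SE 0.18, edgeR adjusted p = 0.00488). Its sides did not overlap, yet the call was lost without replicate 1 (adjusted p = 0.199) and without replicate 2 (0.116). The other genes lower on the west side, again named after their values were seen, were its neighbor Ha412HOChr16g0750681 (-0.69) and Ha412HOChr12g0557701 (-0.65), a homolog of the potassium transporter gene KUP6. Of these 10 genes, 2, 2 and 3 passed again without replicates 1, 2 and 3, 0 on day 1 alone and 3 on day 2 alone. In the same order, 0.336%, 0.479%, 0.628%, 0.339% and 0.509% of all genes tested differed, against 1.79% with all libraries. With the replicate block all 10 passed again, within 17 genes higher and 6 lower on the west side (3.28% and 4.82% of all).

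At ZT20, 7 genes were lower on the west side and 0 higher, against 0.918% of all genes tested that were lower on the west side and 2.63% that were higher. At an unadjusted p under 0.05 there were 32 lower and 0 higher, and DESeq2 called 15 lower and 0 higher. The largest change among those that passed was that of Ha412HOChr02g0087001, a homolog of XTH31, whose family cuts and rejoins the xyloglucan of cell walls. It had 7.80, 17.5 and 21.6 CPM on west sides and 23.1, 34.9 and 39.7 CPM on east sides, without overlap (log2 fold change -1.07, SE 0.27, edgeR adjusted p = 0.0128). Without replicates 1, 2 and 3 its adjusted p was 0.118, 0.121 and 0.134. The others, named after their values were seen, were Ha412HOChr11g0478731 (-0.90), the expansin homolog Ha412HOChr17g0857711 (EXPA1, -0.57), Ha412HOChr06g0277531 (-0.44), Ha412HOChr17g0811521 (-0.42), Ha412HOChr16g0802641 (-0.41) and Ha412HOChr10g0434281 (-0.41). Ha412HOChr11g0478731 and Ha412HOChr16g0802641 were thus higher on the west side at ZT12 and lower there at ZT20. Of these 7 genes, 1, 0 and 3 passed again without replicates 1, 2 and 3, and 4 without the library that stood apart alone, a choice made after seeing the data. In the same order, 0.407%, 0.0385%, 0.342% and 0.72% of all genes tested were lower on the west side. With the replicate block all 7 passed again, within 33 genes lower and 0 higher on the west side (3.59% and 5.48% of all).

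Phototropism, in other plants, asked whether the same genes also differ across a stem that bends toward blue light. At ZT3, the start of the blue light, 0 of the 100 genes were differentially expressed between shaded and lit sides (0 lower and 0 higher on the shaded side at an unadjusted p under 0.05; DESeq2 gave 0), against 0.00306% of the 32644 genes tested. From ZT4 to ZT12, most of the genes that differed were lower on the shaded side, that is, higher on the lit one. At ZT4 there were 27 lower and 6 higher on the shaded side, against 5.67% and 5.15% of all genes tested. At ZT5 there were 48 lower and 3 higher (7.36% and 6.75% of all), and at ZT7 57 lower and 5 higher (11.8% and 11.4% of all). At ZT9 the numbers were 54 and 3, where 12.2% of all genes were lower and 22.3% differed in either direction, and at ZT12 they were 39 and 3 (9.39% and 7.31% of all). Later the genes divided more evenly, with 15 lower and 8 higher at ZT15 (4.73% and 3.01% of all), 16 and 11 at ZT18 (4.31% and 2.2%), and 16 and 10 at ZT21 (4.03% and 2.19%).

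The median log2 fold change of the 100 genes, shaded over lit, was -0.02 at ZT3 and -0.25 an hour later, and it reached -0.74 at ZT5 and -0.91 at ZT7, followed by -0.70 at ZT9 and -0.50 at ZT12. At ZT15, ZT18 and ZT21 it was -0.12, 0.06 and -0.02. The shares above refer to all genes tested, many of them less abundant. Among the 20726 genes with at least 5 CPM in phototropism, 7.44% had their highest shaded library below their lowest lit library at ZT7, as did 34 of the 100 genes. At ZT5 it was 33 genes (4.84% of all), at ZT9 35 (7.71%) and at ZT12 22 (5.19%). In all, 72 of the 100 genes were lower on the shaded side at 1 or more time points, 29 of them at each of ZT5, ZT7, ZT9 and ZT12. On the shaded side, 16 genes were higher at 1 or more time points, of which 6 also belong to the 72, and 18 genes differed at no time. These counts come from the fit without a block for the replicate number. The matching shares of all genes over several time points were not counted. For genes lower on the shaded side at 1 or more times, the share is at least the 12.2% of ZT9 alone. At ZT7, 34 of the 54 genes with a homolog were lower on the shaded side and 23 of the 46 without.

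**Figure D4:**
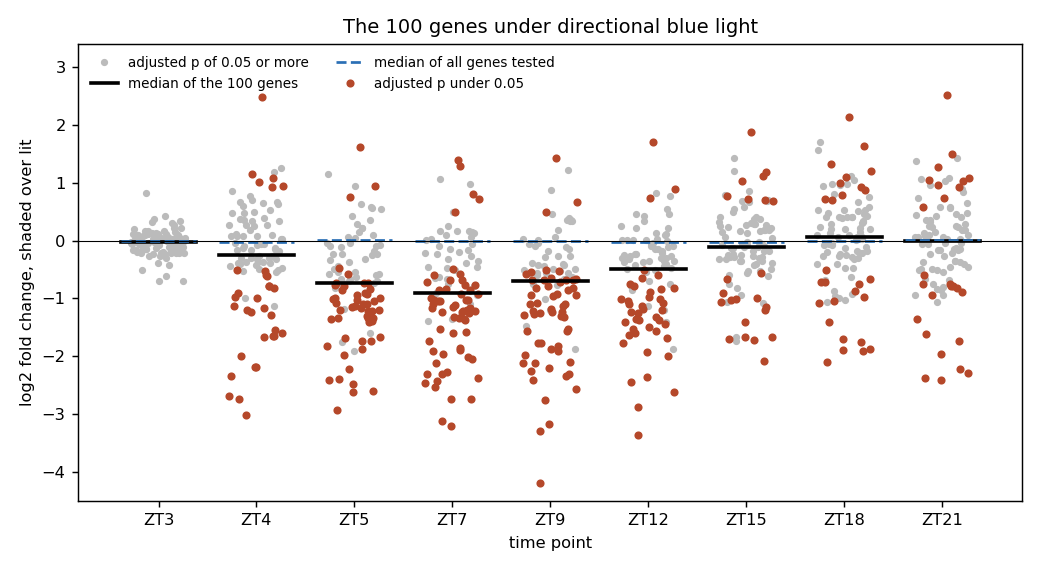
Log2 fold change of the 100 genes, shaded over lit (y axis), at the 9 time points of the blue light experiment (x axis). Each dot is a gene, in red where the adjusted p was under 0.05, black bars are medians of the 100 genes and dashed blue bars medians of all genes tested; red dots are mostly below 0 from ZT4 to ZT12, and the median is lowest at ZT7 with -0.91.

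Shaded and lit libraries of a time point deviated together where their replicate number was the same, so that the model was also fitted with that number as a block. With the block there were 34 genes lower and 17 higher on the shaded side at ZT4 (10.4% of all genes in each direction), 26 and 17 at ZT15 (11.0% and 9.05%), 23 and 25 at ZT18 (9.78% and 7.62%), and 28 and 19 at ZT21 (9.48% and 8.01%). At ZT5 it gave 64 lower and 7 higher (13.3% and 13.1% of all), and at ZT7 70 and 6 (18.8% and 18.6%). At ZT9 the blocked numbers were 68 and 7 (19% and 17.7%), and at ZT12 54 and 7 (17.3% and 14.4%). For comparison, the 100 genes with the opposite field pattern (east at ZT8, west at ZT16) were chosen from the same field libraries by the mirrored score. Of these, 1 was lower and 61 were higher on the shaded side at ZT7 without the block, where the genes described here had 57 and 5.

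A group of 7 homologs act in light perception, pigment synthesis and photosystems. The group was put together after the 100 genes were known, and all 7 are given. At ZT7 each of the 7 was lower on the shaded side without overlap, and each was also lower at ZT5 and ZT9. Of all genes tested, 11.8% were lower and 11.4% higher at ZT7, shares that also apply to the groups below. At ZT4 and at ZT12, 6 of the 7 were lower. At ZT15, ZT18 and ZT21, 5, 6 and 7 of them were still lower, with medians of -0.66, -0.75 and -0.79. The smallest adjusted p of the 100 genes at ZT7 was that of Ha412HOChr17g0840271, a homolog of VAR2 (FTSH2), a thylakoid protease that repairs photosystem II in Arabidopsis. It had 10.2, 17.7 and 21.6 CPM on shaded sides and 88.1, 115 and 140 CPM on lit sides (log2 fold change -2.74, SE 0.16, edgeR adjusted p = 2.68e-26). At ZT3 it had 14.9 to 25.0 CPM on shaded and 15.3 to 25.1 CPM on lit sides, and 1 hour later 19.1 to 37.2 CPM and 79.6 to 151 CPM. Its fold change remained past the threshold at each time point from ZT4 to ZT21. In the field it had 20.04, 26.0 and 34.1 CPM on west sides at ZT8 and 14.97, 15.9 and 19.2 CPM on east sides, and 6.87, 9.56 and 11.2 CPM and 11.8, 13.1 and 14.2 CPM at ZT16. At field ZT4 it lay at 24.02, 32.6 and 43.5 CPM on west sides and 42.1, 44.8 and 49.6 CPM on east sides (log2 fold change -0.48, SE 0.12, edgeR adjusted p = 0.0728, and 0.00742 with the replicate block), and DESeq2 gave an adjusted p of 0.0253.

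Ha412HOChr07g0298481, a homolog of the blue light receptor gene PHOT2, had 90.1, 130 and 144 CPM on shaded and 218, 263 and 306 CPM on lit sides at ZT7 (log2 fold change -1.10, SE 0.14, edgeR adjusted p = 7.36e-10). Ha412HOChr02g0083771, a homolog of PSBS, which dissipates excess light energy, had 64.3, 75.9 and 84.8 CPM on shaded and 144, 176 and 218 CPM on lit sides (log2 fold change -1.24, SE 0.14, edgeR adjusted p = 2.19e-11). The median log2 fold change of the 7 genes was -1.19. For chlorophyll synthesis there were Ha412HOChr10g0446461 (a homolog of GUN5, a magnesium chelatase subunit), with 262 to 426 CPM on shaded and 545 to 771 CPM on lit sides, and Ha412HOChr17g0817591 (a homolog of PORC, which reduces protochlorophyllide), with 25.3 to 43.8 and 52.6 to 75.4 CPM. The carotenoid gene homolog Ha412HOChr15g0724321 (PSY, phytoene synthase) had 22.3 to 31.9 CPM on shaded and 48.3 to 75.1 CPM on lit sides. Ha412HOChr09g0430321, a homolog of HCF173, which acts in the synthesis of a photosystem II protein, had 53.2 to 92.0 and 142 to 216 CPM. Beside these values, the summed level of the green cortex markers overlapped between the sides at ZT7, at 1912 to 2811 CPM on shaded and 1956 to 2625 CPM on lit sides. Of its 9 genes tested, 3 were higher on the shaded side and 1 was lower. This sum also moved with the time of day, on field west sides from 1865 to 2453 CPM at ZT8 to 116 to 219 CPM at ZT20. It is thus no plain measure of the amount of green cortex, and whether that amount differed between the sides was not tested.

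Among 4 homologs of metabolic genes, 3 were lower on the shaded side at ZT7. The PDX1 homolog Ha412HOChr16g0766311 had 17.3, 21.3 and 27.6 CPM on shaded and 115, 139 and 171 CPM on lit sides (log2 fold change -2.75, SE 0.16, edgeR adjusted p = 3.42e-26). Ha412HOChr03g0129971, a homolog of PPDK, which makes phosphoenolpyruvate from pyruvate, had 5.27, 9.33 and 9.996 CPM on shaded and 25.5, 34.4 and 46.2 CPM on lit sides (log2 fold change -2.04, SE 0.26, edgeR adjusted p = 4.57e-10). Neither gene showed overlap between the sides. Ha412HOChr06g0269221, a homolog of TPS11 of the trehalose phosphate synthase family, had 6.44, 7.68 and 17.996 CPM on shaded and 7.28, 15.8 and 27.4 CPM on lit sides. A log2 fold change of -0.77 (SE 0.26) passed the test (edgeR adjusted p = 0.0204), but the adjusted p lay from 0.0571 to 0.0864 without replicates 2, 4 and 6. The nitrite reductase homolog Ha412HOChr16g0763171 (NIR1) overlapped at ZT7, with 49.8, 78.7 and 95.1 CPM on shaded and 44.5, 68.4 and 82.9 CPM on lit sides (log2 fold change 0.17, SE 0.27, edgeR adjusted p = 0.74).

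Of 6 homologs of regulators of transcription and growth, 2 were higher and 1 was lower on the shaded side at ZT7. The lower one, named after its values were seen, was Ha412HOChr11g0510131, a homolog of MYB12, an activator of flavonol synthesis, with 5.57, 8.61 and 13.8 CPM on shaded and 43.1, 51.8 and 59.6 CPM on lit sides (log2 fold change -2.52, SE 0.26, edgeR adjusted p = 1.39e-13). Among the genes that passed the test at ZT4, ZT7 and ZT15, the largest change toward the shaded side was each time that of Ha412HOChr16g0761891, a homolog of LBD37, a repressor that responds to nitrogen. At ZT4 it had 2.996, 5.21 and 8.97 CPM on shaded and 0.237, 0.8287 and 2.11 CPM on lit sides (log2 fold change 2.49, SE 0.47, edgeR adjusted p = 3.08e-05), and at ZT15 4.00, 4.24 and 10.9 CPM and 0, 1.14 and 4.70 CPM (log2 fold change 1.88, SE 0.45, edgeR adjusted p = 0.00278). At ZT7 its log2 fold change was 1.39 (SE 0.43, edgeR adjusted p = 0.0111), with an adjusted p of 0.0504 without replicate 1 and 0.0585 without replicate 2. The other gene higher on the shaded side, named after its values were seen, was Ha412HOChr01g0020891, a homolog of EPFL6, a secreted peptide of stomatal patterning, with 9.08, 13.1 and 17.7 CPM on shaded and 4.90, 7.63 and 10.5 CPM on lit sides (log2 fold change 0.80, edgeR adjusted p = 0.0163). Without replicates 3 and 5 its adjusted p was 0.0827 and 0.0584.

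Of 5 homologs of genes for hormone synthesis and perception, 3 were lower on the shaded side at ZT7 and 1 was higher. Ha412HOChr11g0483091, a homolog of AOC3 (allene oxide cyclase, a step of jasmonate synthesis), showed the largest change toward the lit side at ZT4 among the genes that passed the test, with 5.45, 10.6 and 17.4 CPM on shaded and 48.0, 81.9 and 160 CPM on lit sides (log2 fold change -3.02, SE 0.60, edgeR adjusted p = 7.11e-05). At ZT7 it had 2.75, 4.32 and 8.95 CPM on shaded and 7.28, 46.7 and 90.8 CPM on lit sides (log2 fold change -3.12, SE 0.61, edgeR adjusted p = 4.69e-05). Ha412HOChr03g0118441, a homolog of ACO4 (EFE), which makes ethylene, changed direction. At ZT4 it had 2.64, 3.76 and 11.1 CPM on shaded and 7.96, 13.5 and 18.9 CPM on lit sides (log2 fold change -1.16, SE 0.39, edgeR adjusted p = 0.0347), and at ZT7 2.28, 3.53 and 5.63 CPM and 0.477, 1.49 and 2.23 CPM (log2 fold change 1.30, SE 0.42, edgeR adjusted p = 0.0159). Both calls depended on the libraries, since the adjusted p at ZT4 lay from 0.085 to 0.173 without replicates 1, 3, 4 and 6, and at ZT7 was 0.058 and 0.0572 without replicates 1 and 5. The homolog of AT5G05690 (CPD), a cytochrome P450 of brassinosteroid synthesis, is Ha412HOChr15g0744561, named after its values were seen. It had 15.9, 19.0 and 25.1 CPM on west sides at field ZT8 and 8.33, 13.5 and 18.6 CPM on east sides, and at ZT16 3.42, 8.54 and 11.3 CPM and 21.9, 45.7 and 64.4 CPM. In blue light its log2 fold change was -0.62 at ZT7 (edgeR adjusted p = 0.201, and 0.0482 with the replicate block) and -1.60 at ZT12 (SE 0.36, edgeR adjusted p = 0.000547).

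Of the 3 homologs of cell wall genes, 2 were lower on the shaded side at ZT7. The XTH31 homolog Ha412HOChr02g0087001 had 1.98, 3.17 and 9.72 CPM on shaded and 11.4, 24.1 and 117 CPM on lit sides at ZT9, without overlap (log2 fold change -3.30, SE 0.88, edgeR adjusted p = 0.00297). At ZT7 its log2 fold change was -2.31 (SE 0.85, edgeR adjusted p = 0.0378), with an adjusted p from 0.0678 to 0.102 when replicate 1, 3, 4, 5 or 6 was left out. Ha412HOChr17g0835161, a homolog of EXPB3, an expansin, a protein that loosens cell walls, had 71.2, 117 and 129 CPM on shaded and 109, 188 and 242 CPM on lit sides (log2 fold change -0.76, SE 0.20, edgeR adjusted p = 0.00179). The expansin homolog Ha412HOChr17g0857711 (EXPA1) overlapped, with 11.4, 24.6 and 29.2 CPM on shaded and 9.53, 19.5 and 31.8 CPM on lit sides (log2 fold change 0.14, SE 0.29, edgeR adjusted p = 0.799). The list of 41 expansins and xyloglucan enzymes with a homolog in the tables, to which these 3 belong, had 14 genes higher and 5 lower on the shaded side at ZT7, with a median of 0.71.

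Homologs of membrane transporters made up 10 of the 100 genes, of which 5 were lower and 1 was higher on the shaded side at ZT7. Among the genes that passed the test at ZT7, Ha412HOChr10g0434281, a homolog of the peptide transporter gene PTR3, showed the largest change toward the lit side. It had 1.47, 3.89 and 6.77 CPM on shaded and 28.02, 37.4 and 59.0 CPM on lit sides (log2 fold change -3.20, SE 0.28, edgeR adjusted p = 3.75e-17), without overlap. In the field at ZT20 it had 8.91, 11.5 and 13.1 CPM on west and 10.5, 16.0 and 18.6 CPM on east sides (log2 fold change -0.41, SE 0.12, edgeR adjusted p = 0.0337), a call that was lost without any of the 3 replicate numbers (adjusted p from 0.144 to 0.273). Both Ha412HOChr16g0750711 and Ha412HOChr01g0045471 (named after its values were seen) are homologs of AT1G52190, a transporter of the nitrate and peptide transporter family. They differed in opposite directions in blue light. Ha412HOChr16g0750711 had 258, 304 and 358 CPM on shaded and 172, 175 and 210.1 CPM on lit sides at ZT15 (log2 fold change 0.73, SE 0.18, edgeR adjusted p = 0.00442). At ZT7 its log2 fold change was 0.50 (SE 0.18, edgeR adjusted p = 0.038), a call that was lost without replicates 1, 2 and 3 (adjusted p = 0.0941, 0.176 and 0.0619). Ha412HOChr01g0045471 had 5.04, 7.06 and 9.27 CPM on shaded and 8.81, 18.04 and 24.3 CPM on lit sides at ZT7 (log2 fold change -1.34, SE 0.25, edgeR adjusted p = 2.04e-05).

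Of 19 further genes with a homolog, 13 were lower on the shaded side at ZT7 and 0 were higher (11.8% and 11.4% of all genes tested). Ha412HOChr11g0478731, a homolog of the protein kinase gene AT4G10390, had 1.97, 4.68 and 6.30 CPM on shaded and 5.90, 13.2 and 19.1 CPM on lit sides (log2 fold change -1.58, SE 0.31, edgeR adjusted p = 3.23e-05). Ha412HOChr16g0802641, the SEC14-type homolog, had 102.3, 118 and 185 CPM on shaded and 125, 200.3 and 353 CPM on lit sides (log2 fold change -0.72, SE 0.22, edgeR adjusted p = 0.0114, and 0.0837 without replicate 4). Ha412HOChr01g0003771, a homolog of NEK2, of the NIMA-related kinases, differed at ZT5, with 5.48, 8.74 and 16.6 CPM on shaded and 9.60, 20.1 and 30.4 CPM on lit sides (log2 fold change -1.04, SE 0.26, edgeR adjusted p = 0.00249). Ha412HOChr14g0658471, a homolog of the oxidoreductase gene ATB2, had the largest change toward the lit side among the genes that passed at ZT15, with 0.178, 0.608 and 1.37 CPM on shaded and 1.087, 2.18 and 6.41 CPM on lit sides (log2 fold change -2.09, SE 0.56, edgeR adjusted p = 0.00785).

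Of the 46 genes without a homolog, 23 were lower and 1 was higher on the shaded side at ZT7. Ha412HOChr10g0477751 had 1.56, 5.26 and 8.31 CPM on shaded and 12.5, 23.0 and 48.0 CPM on lit sides (log2 fold change -2.26, SE 0.43, edgeR adjusted p = 2.44e-05). Ha412HOChr11g0488731, the gene with the largest fold change toward the west among those that passed at field ZT12, had 17.2, 31.0 and 51.7 CPM on shaded and 76.6, 81.5 and 96.6 CPM on lit sides (log2 fold change -1.36, SE 0.22, edgeR adjusted p = 7.55e-07). In both genes the sides did not overlap. Ha412HOChr15g0706061, whose sides were apart at field ZT8 and ZT16, overlapped in blue light, with 3.15, 4.65 and 9.03 CPM on shaded and 2.76, 6.15 and 14.8 CPM on lit sides (log2 fold change -0.46, SE 0.35, edgeR adjusted p = 0.384). Ha412HOChr09g0424491 had 6.63, 12.6 and 23.9 CPM on shaded and 10.8, 19.4 and 41.0 CPM on lit sides (log2 fold change -0.75, SE 0.36, edgeR adjusted p = 0.126, 0.00745 with the replicate block and 0.0346 without replicate 2). Ha412HOChr17g0822641 was scarce in the chamber, where no shaded library exceeded 2.08 CPM and no lit library 5.99 CPM at ZT7 (log2 fold change -0.94, SE 1.02, edgeR adjusted p = 0.581).

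In the chamber the stems first bend toward the light and later straighten, and the change of the side difference from ZT7 to ZT15 was tested as an interaction. For 20 of the 100 genes the log2 ratio of shaded over lit was higher at ZT15 than at ZT7 and for 0 it was lower, against 1.3% and 1.58% of all genes tested. The median change was 0.77. All 20 were lower on the shaded side at ZT7. The 100 genes with the opposite field pattern had 0 higher and 54 lower, with a median change of -1.24. Of all genes tested, 23.3% differed between the sides at ZT7 and 7.73% at ZT15. A smaller side difference at ZT15 was thus not particular to the genes described here. The count of 20 depended on the libraries, with 9 genes without replicate 3 and 11, 12 and 11 without replicates 4, 5 and 6. The share of all genes tested in this direction was also lower then, at 0.564%, 0.592%, 0.702% and 0.67%. With the replicate block the count was 56 and 0 (7.2% of all genes in this direction). Of the 57 genes lower on the shaded side at ZT7, 14 were still lower at ZT15 and 1 was higher, Ha412HOChr15g0740181. This gene had 240, 337 and 457 CPM on shaded and 258, 351 and 411.8 CPM on lit sides at ZT3. At ZT7 it had 137, 225 and 310 CPM on shaded and 294, 465 and 610 CPM on lit sides (log2 fold change -1.03, SE 0.18, edgeR adjusted p = 4.53e-06). At ZT15 it had 153, 187 and 221 CPM on shaded and 76.1, 111 and 120 CPM on lit sides, without overlap (log2 fold change 0.77, SE 0.18, edgeR adjusted p = 0.00164). The change between the times was 1.80 (SE 0.25, edgeR adjusted p = 9.54e-07). In the VAR2 homolog Ha412HOChr17g0840271 and the PDX1 homolog Ha412HOChr16g0766311 the difference became smaller without turning, with changes of 1.33 (SE 0.22, edgeR adjusted p = 3.88e-05) and 1.54 (SE 0.22, edgeR adjusted p = 1.64e-06).

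**Figure D5:**
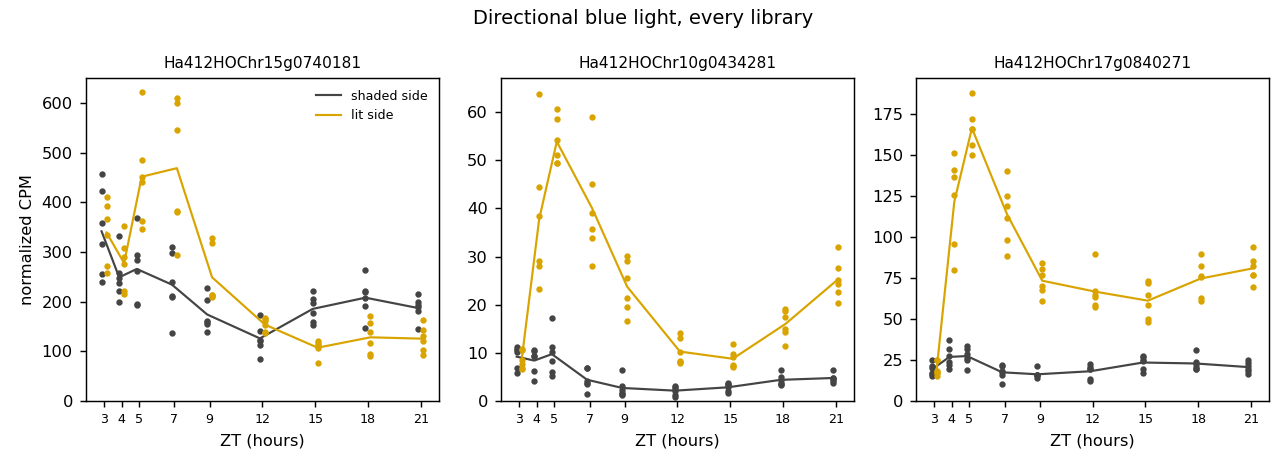
Normalized CPM (y axis) of Ha412HOChr15g0740181, of the PTR3 homolog Ha412HOChr10g0434281 and of the VAR2 homolog Ha412HOChr17g0840271 in every library of the blue light experiment by time (x axis, ZT in hours), with lines through the means of shaded and lit sides. In Ha412HOChr15g0740181 the shaded libraries lie at 137 to 310 CPM and the lit at 294 to 610 CPM at ZT7, and at 153 to 221 CPM and 76.1 to 120 CPM at ZT15; in the other genes shaded libraries lie below lit ones at both times.

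Gene lists that describe growth and light responses of stems were made by searching the homologs' symbols and descriptions for words, so that they miss relatives with other names or spellings. The homologs of PSBS, of the brassinosteroid gene CPD and of the abscisic acid receptor gene PYL9 are in no list. Of the genes with at least 5 CPM and a homolog in the tables, 0.727% belong to the 100 genes. Of the listed genes with at least 5 CPM, 3 of 27 expansins and xyloglucan enzymes did (11.1%), 2 of 21 in ethylene and jasmonate (9.52%), 1 of 32 in starch and sugar (3.12%) and 3 of 540 kinases (0.556%). The lists of photosynthesis (34 genes), auxin (50), brassinosteroid and gibberellin (35), abscisic acid (48), pectin and cellulose enzymes (67), heat shock (81), ribosomal proteins (196), cyclins and histones (54) and clock genes (11) held 0. The genes with the opposite field pattern also held homologs of xyloglucan enzymes, among them XTH33, XTH23, XTH15 and XTH8. Such homologs were thus not particular to the 100 genes. At ZT7 the photosynthesis list had 4 genes higher and 12 lower on the shaded side, and ethylene and jasmonate had 5 and 10. The genes lay on all 17 chromosomes, with 12 on chromosome 16, 10 on chromosome 17 and 1 each on chromosomes 4 and 5, where 6.35%, 6.58%, 6.15% and 5.34% of the genes with at least 5 CPM lie. At most 5 places apart in the gene order were 5 pairs, of which Ha412HOChr09g0424491 and Ha412HOChr09g0424521 (a homolog of the sucrose transporter gene SWEET12) were direct neighbors, as were Ha412HOChr02g0078421 and Ha412HOChr02g0078431. Salmon shares reads among similar transcripts, so the values of near-identical neighbors are uncertain where they exchange reads.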

How the data were processed

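Reads of 180 libraries (72 field, 108 phototropism) were filtered by quality by the authors and assigned with salmon (Salmon 1.4.0 and Cufflinks 2.2.1 in the submitters' processing notes) to a transcriptome made from the Ha412HOv2.0 sunflower genome and its Eugene annotation. The authors deposited, as an estimated count per gene, values that are not normalized and of which 44.6% (field) and 46.9% (phototropism) of the values above 0 were whole, and a signal table of normalized CPM per experiment. The CPM tables gave all levels and the choice of the genes. Whole counts had been planned for, so the estimated counts were rounded.

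A gene was tested if 3 or more field libraries (34315 genes) or 6 or more phototropism libraries (32644 genes) held 10 counts or more. The quasi-likelihood F test of edgeR 4.0.16 (R 4.3.3) was used after TMM normalization, with 1 group per side and time of day and the field days combined. P values were adjusted over all genes tested by the Benjamini-Hochberg method, with a threshold of 0.05. Fold changes are west over east and shaded over lit. The SE given with an edgeR fold change was back-calculated, as the absolute log2 fold change divided by the square root of the F statistic. Each count table lists 46480 genes, and 0 columns were of no known sample. Alternatives were DESeq2 1.42.0, no filter on low counts, the replicate number as a block, each replicate left out, single days, and other settings of the choice. In the field, both sides came from the same 6 plants at each time, and the methods do not say that a number marks the same 2 plants. Deviations from the group means correlated over 0.1 in 27 of 36 pairs of the same number (r from 0.0373 to 0.395), and all 72 libraries correlated best with their own number. Blocked values are therefore given beside the others. In phototropism the replicate numbers paired the samples, since deviations from the group means correlated in each of the 54 pairs of the same replicate number and time (r from 0.242 to 0.751). The deposited tables hold no fold changes, and homologs came from the supplementary tables of the study, of whose values none were used. The edgeR fits were tested on simulated counts. These had a fixed spread for all genes and unpaired libraries, so they do not tell how small a difference the data could show.

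The 100 genes, the gene lists and the functional groups were chosen with earlier results of these data known. Named are the 10 genes with the largest score, those at the edge of the choice, the genes with the largest change in each direction at phototropism ZT4, ZT7 and ZT15 and field ZT4, ZT12 and ZT20, the 3 with the largest score in each list, and that with the smallest adjusted p at phototropism ZT7. Other genes are given as a whole group, by their place in the genome, or are said to be named after their values were seen. Tables were summarized with Python 3.11.15 and pandas 2.3.3.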

Additional observations from a re-analysis of the deposited data

Results flagged for a closer look

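Dixon's limit for 6 values was applied to 30 groups of 6 libraries. These were the first 4 genes by score and the VAR2 homolog, at field ZT8 and ZT16 and phototropism ZT7. The limit serves as a mark only and gives no rate of chance, since the field values at ZT8 and ZT16 chose the genes. In these groups, 7 extreme libraries lay farther from the others than the limit. Of these, 6 belong to Ha412HOChr09g0425221. It had 75.3 CPM in replicate 2 of the west side and 20.4 CPM in replicate 2 of the east side at ZT8 of day 2, and 15.4 CPM in replicate 1 of the west side and 36.03 CPM in replicate 2 of the east side at ZT16 of day 1. In phototropism at ZT7 it had 90.6 CPM in replicate 6 of the shaded side and 58.4 CPM in replicate 6 of the lit side. The last was Ha412HOChr17g0822641, with 33.97 CPM in replicate 2 of the west side at ZT8 of day 2.

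The side difference in blue light changed between ZT7 and ZT15, by the interaction test of edgeR, in 5 of the genes whose values are described above. The change of the log2 ratio, shaded over lit, was 1.80 in Ha412HOChr15g0740181 (adjusted p = 9.54e-07), 1.54 in Ha412HOChr16g0766311 (1.64e-06), 1.33 in Ha412HOChr17g0840271 (3.88e-05), 1.53 in Ha412HOChr10g0434281 (0.013) and 1.26 in Ha412HOChr11g0488731 (0.00968). The call of Ha412HOChr10g0434281 was lost without replicate 5 (adjusted p = 0.0818), and that of Ha412HOChr11g0488731 without replicates 3 and 5 (0.0716 and 0.0702).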

How the results depend on the processing

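The choice of the 100 genes moved with the libraries. With means of day 1 or day 2 alone, 57 and 51 of them were chosen again, and 64 to 71 when a replicate number was left out. Other settings kept 93 and 90 (0.5 and 2 CPM added), 75 (mean of at least 1 CPM) and 77 (10 CPM). In the field, the count of differentially expressed genes with 0, 1, 10 and 7 at ZT0, ZT4, ZT12 and ZT20 became 3, 6, 23 and 33 with the replicate block. DESeq2 gave 4 at ZT4 and 15 at ZT20. Leaving out a replicate number gave 0 at ZT4, 2 to 3 at ZT12 and 0 to 4 at ZT20. The share of all genes tested was then 0.336% to 0.628% at ZT12 and 0.21% to 1.88% at ZT20, against 1.79% and 3.54% with all libraries. Day 1 alone gave 0, 1 and 1 at ZT4, ZT12 and ZT20, and day 2 alone 0 and 3 at ZT4 and ZT12. Without the west library that stood apart, an alternative chosen after seeing the data, ZT20 gave 4. In blue light, where the block pairs samples, it gave 51, 43, 48 and 47 at ZT4, ZT15, ZT18 and ZT21 (33, 23, 27 and 26 without it), and 56 for the change from ZT7 to ZT15 (20 without it). This last count was 9 to 28 when a replicate number was left out (0.564% to 1.55% of all genes tested in this direction). The counts at ZT5, ZT7, ZT9 and ZT12 stayed within 1.5 times under all alternatives run. Of 1204 values of single genes given in the text or past the threshold, 1068 kept their direction and side of the threshold under the alternatives, 131 lost a call, 5 gained one and 0 reversed. Over all times tested, genes chosen by the rule for names passed with the replicate block but not without it 10 times in the field and 35 times in blue light, and 0 lost a call with it. The causes were not tested.

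Each group had 6 libraries, pools of 2 plants, and how small a difference could be found at this depth was not tested. Homologs were available for 54 genes only.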
